A study of Mus musculus with 2 samples.

Results

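Mirtron-type miRNAs of the mouse, from the 3p arms of the hairpins numbered miR-6896 to miR-7093, were compared between exosomes of pancreatic cancer cells and exosomes of pancreatic duct cells. The members were taken by name, as every probed mouse miRNA of that number range whose name ends in 3p. The rule itself uses no measured value. There were 198 such miRNAs among the 1881 mouse miRNAs on the array. They were set beside the 200 probed 5p arms of the same number range and the 587 other 3p arms.

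The KPC-exosomes came from a murine pancreatic cancer cell line that was derived from a tumour of Pdx1-Cre mice, whose Cre acts where the Pdx1 promoter is active and which carry the allele Trp53 LSL-R172H/+, and that was grown in RPMI-1640 with 20% FBS. The MPDC-exosomes, the control, came from a murine pancreatic ductal epithelial cell line grown in DMEM with 10% FBS. Exosomes are small vesicles released by cells, here collected from the culture supernatant by differential ultracentrifugation after culture with exosome-free FBS. One Cy3-labelled RNA preparation of each kind was put on 1 Agilent mouse miRNA array, so the line, the medium and the array cannot be told apart in any difference below.

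A mirtron is a short intron that is spliced out of a messenger RNA precursor, debranched, and folded into a hairpin that Dicer can cut. It reaches Dicer without the nuclear enzyme Drosha, which frees the hairpins of most other miRNAs. The 3p arm of a mirtron is the end of the intron, so it carries the sequence of a 3′ splice site, a stretch rich in C and U that closes with AG. Each mature arm can be loaded into an Argonaute protein, where bases 2 to 8, the seed, do most of the pairing with target messages.

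The mature 3p arms of the members on which the results turn are printed from the RefSeq table (GRCm38.p6), 5′ to 3′ with the seed in capitals, and the first group holds the brightest members of either array. Of those printed, miR-7022-3p, miR-7047-3p, miR-7005-3p and miR-6945-3p do not end in AG.

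miR-7033-3p: uGCCUCCAuucucuugggcag
miR-7045-3p: uCUCCCCCcucccccgcacag
miR-6937-3p: uCACAGGUucccccuugcacuag
miR-7022-3p: aCAAGCCUgaccucugccccca
miR-7046-3p: uGAACCACccaucccccuacag
miR-6897-3p: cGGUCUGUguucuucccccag
miR-7067-3p: uGAUUGCUucccuccccacag

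The next group holds members with large differences after normalization (miR-6940-3p, miR-7047-3p, miR-7005-3p), the member detected in KPC-exosomes only (miR-6944-3p), and members detected in MPDC-exosomes only (the last 4).

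miR-6940-3p: uUACCUUCcgugcuugcccgcag
miR-7047-3p: uCACCCUCacccuuccuccuucc
miR-7005-3p: cUGUGCCUgcuacccaucccuugca
miR-6944-3p: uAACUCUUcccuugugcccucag
miR-7054-3p: uCCAACUUggccccuuccag
miR-7023-3p: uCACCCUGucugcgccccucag
miR-6927-3p: cCUGAGCUggcuccccugcag
miR-6945-3p: uCUGAGCUcugcccuucccau

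The label mirtron-type was checked on sequence and position, without the signals. RefSeq held a mature sequence for 174 of the 198 members, and 136 of these (78.2%) end in AG, against 11.2% of the other 3p arms and 6.82% of the 5p arms of the same number range. A median of 71.7% of the bases of the members were C or U, against 54.5% of the other 3p arms. All 174 lie within the span of a protein-coding gene, against 57.5% of the other 3p arms with a RefSeq entry. The strand of the host was known for 151, and all 151 lie on that strand. The hairpins were 52 to 109 bases long (median 66, over 169 with a hairpin in the table), against a median of 79 for the other 3p arms. The table gives no exons, so whether each hairpin fills an intron was not examined, and 38 of the 174 end in other bases than AG.

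Few members shared a seed. Their 174 sequences held 167 different seeds, of which 161 belonged to 1 member each. The largest group was CACCCUG, shared by miR-7018-3p, miR-7023-3p and miR-7068-3p, of which 1 was detected.

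Each member had 2 probes (182 members) or 3 probes (16 members), 412 in all, and each probe had 10 to 15 spots on an array (median 15). None of these spots was saturated. The signal of a probe is its background-subtracted brightness in arbitrary units, with an error that the scanner software gives from its spots. A probe counted as detected above 3 errors, and the signal of a miRNA is the sum over its detected probes. With 1 array per condition no test across samples can be made. The errors given with ± are those of the scanner, which cover the spots of 1 array and not the spread between preparations.

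Facts of the whole arrays that touch the members are the following. The 4 spike-in controls differed by -0.31 to 0.38 on the log2 scale (KPC minus MPDC, mean 0.03). Of 6 epithelial miRNAs, 5 were detected in KPC-exosomes and 6 in MPDC-exosomes, with summed signals of 98.8 and 1763. Of 5 pancreas miRNAs, 1 was detected on each array, miR-217-5p in KPC-exosomes and miR-148a-3p in MPDC-exosomes, with sums of 60.9 and 1190. Of 5 haematopoietic miRNAs, 4 were detected on each array (sums of 704 and 501). Of 4 red cell and serum miRNAs on the array 3 and 4 were detected (sums of 1089 and 8732), and of 3 muscle miRNAs 2 and 3 (sums of 17.7 and 42.0). The brightest red cell and serum miRNA of each array alone had 1058 and 8572. All 8 miRNAs of a list for pluripotent cells were detected in MPDC-exosomes, with a summed signal of 349980 against 436 in KPC-exosomes, where 4 of 8 were detected. The part of these lists in the values of the members was not tested.

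Most members were not seen in either kind of exosome. In KPC-exosomes 45 of the 198 members (22.7%) were detected, against 41.0% of all miRNAs, and in MPDC-exosomes 65 (32.8%) were, against 54.8% of all miRNAs. On both arrays 44 were detected, in MPDC-exosomes only 21, in KPC-exosomes only 1 (miR-6944-3p), and on neither array 132. The 5p arms of the same hairpin numbers were detected more often, 127 of 200 (63.5%) in KPC-exosomes and 154 (77.0%) in MPDC-exosomes. Of the other 3p arms, 226 of 587 (38.5%) and 315 (53.7%) were detected. Of the members that end in AG, 33 of 136 (24.3%) were detected in KPC-exosomes and 45 (33.1%) in MPDC-exosomes, and of those with another end 8 and 13 of 38. In exosome RNA, fewer vesicles with a miRNA and less of it per vesicle cannot be told apart.

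The members that were detected were dim. Their median signal in KPC-exosomes was 9.83, and that in MPDC-exosomes 15.1, against 29.9 and 51.2 over all detected miRNAs and 26.8 and 54.4 over the detected 5p arms. A signal of at least 100 was reached by 1 member in KPC-exosomes (miR-7033-3p) and by none in MPDC-exosomes, where 30.1% and 38.8% of all detected miRNAs reached it. Signals of different miRNAs rest on different probes, so these are distributions and not amounts.

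Values near the limit were as follows. The members nearest to it in KPC-exosomes were miR-7087-3p and miR-7053-3p at 3.18 and 3.25 errors, inside, and miR-7057-3p and miR-7054-3p at 2.96 and 2.91 errors, outside. In MPDC-exosomes they were miR-6945-3p and miR-6977-3p at 3.05 and 3.06 errors, inside, and miR-6997-3p and miR-7034-3p at 3.0 and 2.95 errors, outside.

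**Figure D1:**
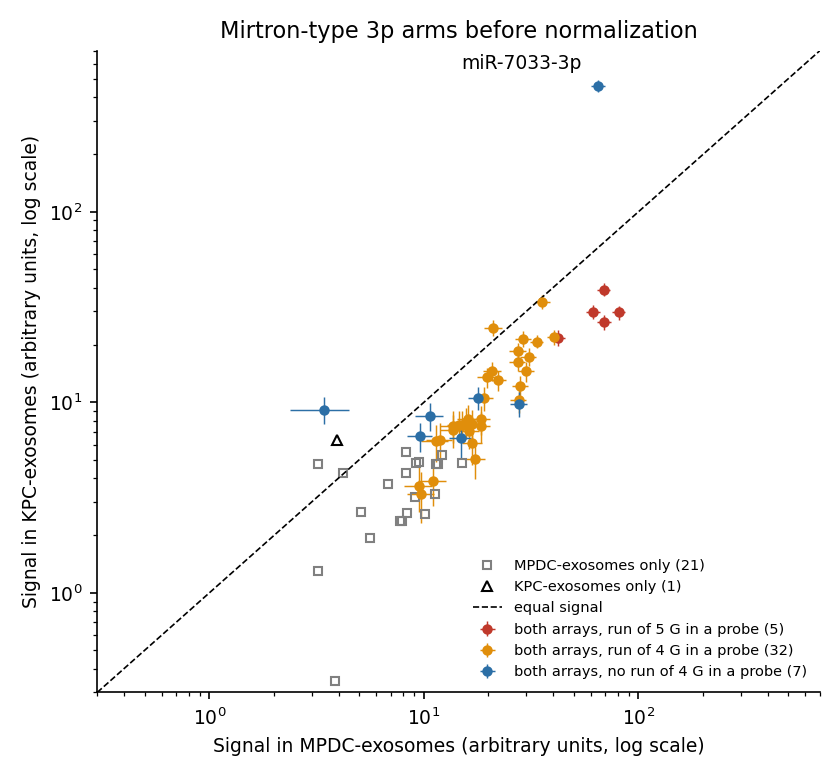
Signal of each member detected on at least 1 array, before normalization, in MPDC-exosomes (x axis) and KPC-exosomes (y axis), both in arbitrary units on log scales, with the scanner error as bars for members detected on both arrays. Open symbols show a member detected on 1 array, placed at the sum over all its probes on the other. Of the 44 filled points, 41 lie below the line of equal signal, and miR-7033-3p lies far above it.

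One member was bright in KPC-exosomes. miR-7033-3p had a signal of 460 ± 33.0 in KPC-exosomes against 64.8 ± 4.80 in MPDC-exosomes, a log2 difference of 2.83 ± 0.15 before normalization. It was the brightest member of the KPC array, while in MPDC-exosomes the brightest was miR-7045-3p. The 15 spots of its 15-base probe ran from 548 to 971 (median 861) in KPC-exosomes and from 98.1 to 127 (median 118) in MPDC-exosomes. The 15 spots of its 16-base probe ran from 565 to 967 (median 911) and from 102 to 129 (median 117). On neither probe did the spots of the arrays overlap. Both probes read the same mature sequence, so they are not independent of each other.

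**Figure D2:**
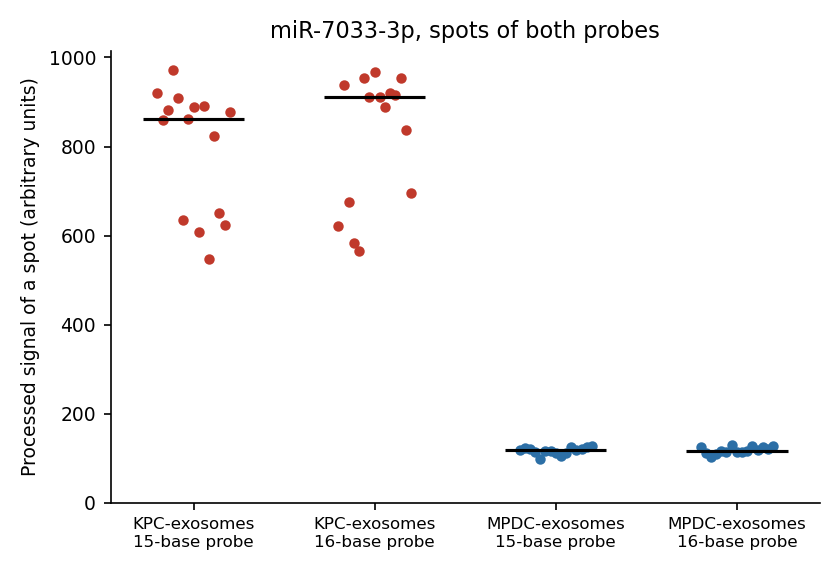
Processed signal of each spot of miR-7033-3p (y axis, arbitrary units, from 0) for its 15-base and 16-base probes on each array. Each group holds 15 spots and the black line is their median. All spots of KPC-exosomes lie at 548 or above and all spots of MPDC-exosomes at 129 or below.

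The other arm of the same hairpin differed in the same direction. miR-7033-5p had a signal of 996 ± 71.0 in KPC-exosomes against 276 ± 19.6 in MPDC-exosomes, a log2 difference of 1.85 ± 0.15 before normalization. The hairpin lies at chr5:135383730-135383810 of GRCm38.p6 on the minus strand, within Pom121, the gene of a membrane protein of the nuclear pore. The mature 3p arm is at chr5:135383730-135383750 and ends with the hairpin itself. The hairpin is printed 5′ to 3′ because both of its arms, in capitals, were measured.

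Mir7033 hairpin: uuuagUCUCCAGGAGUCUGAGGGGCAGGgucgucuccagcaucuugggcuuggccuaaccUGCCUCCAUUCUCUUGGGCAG

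The probe of miR-7033-3p had at most 10 bases in a row in common with the probe of another miRNA. That miRNA, miR-7048-3p, was not detected in KPC-exosomes and had a signal of 9.48 in MPDC-exosomes. Whether probes share signal was not tested.

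Before normalization nearly all other members detected on both arrays were dimmer in KPC-exosomes, and by a similar amount. Of the 44 members detected on both arrays, 41 had a lower signal in KPC-exosomes (93.2%, against 81.4% of all miRNAs detected on both), and 3 had a higher one (miR-7033-3p, miR-6940-3p and miR-6976-3p). The median log2 difference was -0.93, with quartiles of -1.20 and -0.73, against a median of -1.37 over all miRNAs. The quartiles of the members lay 0.47 apart and those of all miRNAs 2.30. Only members detected on both arrays enter here, and their median signal in MPDC-exosomes was 18.7, against 98.0 over all miRNAs detected on both. A dim member that was much lower in KPC-exosomes would go undetected there and leave this set. The 21 members detected in MPDC-exosomes only are not in it, and the part of this limit in the narrow spread was not tested. The median scanner error of a difference was 0.26. Each difference, on the detected probes, was also set against 2 of its own scanner errors. By more than that 38 members were lower (all miRNAs 73.4%) and 2 were higher (all miRNAs 14.7%), and 4 differed by less. Without miR-7033-3p the differences ran from -1.79 to 1.42 with an SD over members of 0.54. Both of these ends, miR-7028-3p and miR-6940-3p, set 1 detected probe on one array against 2 on the other, as did 3 of the 44 members. With all probes summed on both arrays they were at -1.27 and 0.91, the differences without miR-7033-3p ran from -1.52 to 0.91 with an SD of 0.47, and the median stayed at -0.93.

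The brightest members of MPDC-exosomes show this pattern. miR-7045-3p, within Chd4, the gene of a chromatin remodelling ATPase, had a signal of 29.6 ± 2.48 in KPC-exosomes and 81.0 ± 5.92 in MPDC-exosomes. miR-6937-3p, within Adi1, a gene of the methionine salvage pathway, had 26.3 ± 2.29 and 69.2 ± 5.11. Both were lower in KPC-exosomes by several scanner errors. miR-7022-3p, within Fbxo6, the gene of an F-box protein of a ubiquitin ligase, had 39.1 ± 3.07 and 68.9 ± 5.08. miR-7046-3p, within Rabac1, the gene of a protein that binds Rab GTPases, had 29.9 ± 2.51 and 61.3 ± 4.57. miR-6897-3p, within Uggt1, the gene of a folding sensor for glycoproteins in the endoplasmic reticulum, had 21.8 ± 2.03 and 42.0 ± 3.29. These 5 and miR-7033-3p were the 6 brightest members in MPDC-exosomes, and miR-7033-3p was the one among them with the higher signal in KPC-exosomes.

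A few members were about equal on the arrays. miR-7067-3p had a signal of 33.6 ± 2.90 in KPC-exosomes against 35.7 ± 2.90 in MPDC-exosomes, a log2 difference of -0.09 ± 0.17. Its probes disagreed by 1.08 on the log2 scale, the largest gap of any member. In 37 of the 39 members with at least 2 probes detected on both arrays, all probes had the same direction, and the median gap between probes was 0.13. miR-6976-3p had a log2 difference of 0.22 ± 0.20, which is within 2 errors of 0.

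miR-6940-3p, within Cep170b, had a signal of 9.16 ± 1.48 in KPC-exosomes against 3.43 ± 1.06 in MPDC-exosomes, a log2 difference of 1.42 ± 0.50. In MPDC-exosomes only 1 of its 2 probes was detected, and the sum over both was 4.89 there, which gives a log2 difference of 0.91. On the detected probes it was, apart from miR-7033-3p, the only member with a higher signal in KPC-exosomes by more than 2 errors. For the sum over both probes no error is given here.

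Normalization turned the direction. The deposited log2 values match quantile normalization, which sets both arrays to a common distribution, with tied values averaged. Undetected miRNAs are tied, so the distributions still differed, with deposited medians of -2.61 in KPC-exosomes and -0.43 in MPDC-exosomes. After normalization all 44 members detected on both arrays were higher in KPC-exosomes, by 0.21 to 4.82 on the log2 scale with a median of 1.1. Over all miRNAs detected on both arrays 62.5% were higher, with a median of 0.53. Of the 44 members, 41 were lower before and higher after normalization, against 43.9% of all miRNAs. Neither direction has a replicate to check it, and the arrays do not tell which scale is right for exosomes.

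**Figure D3:**
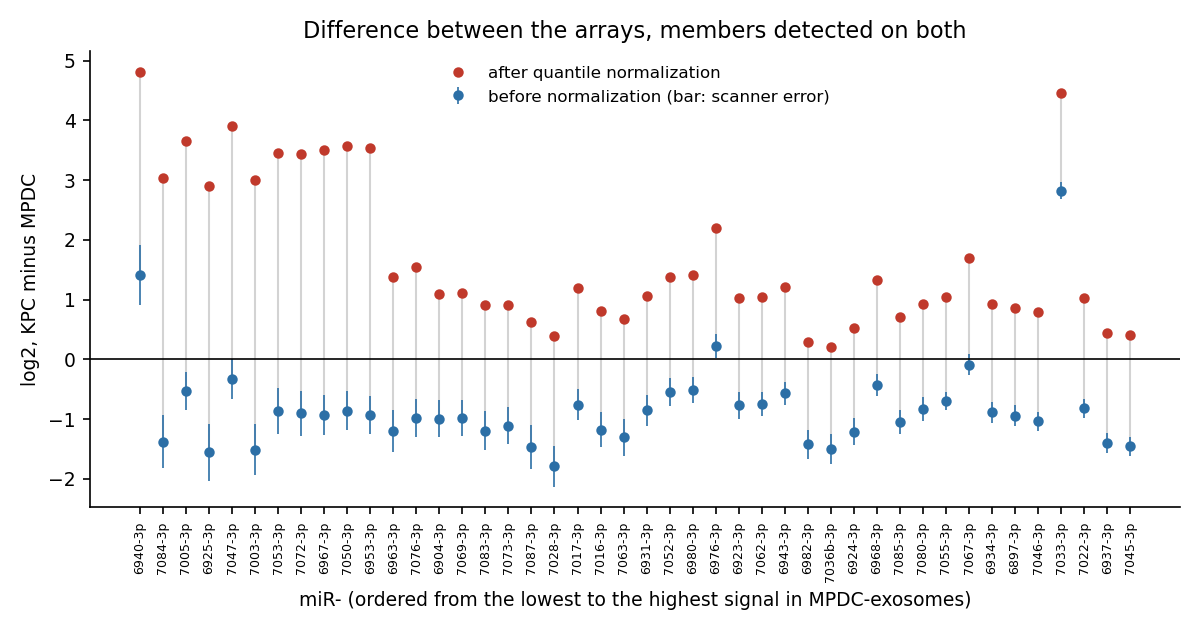
log2 difference (y axis, KPC minus MPDC) of the 44 members detected on both arrays, ordered by signal in MPDC-exosomes (x axis), before normalization with the scanner error (lower series) and after quantile normalization (upper series). The lines join the values of 1 member. Before normalization 41 lie below 0, after it all 44 lie above 0, and the members at the left are moved most.

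The size of a normalized difference went with the signal. More miRNAs were detected in MPDC-exosomes (1031) than in KPC-exosomes (772). The dimmest detected signals of MPDC-exosomes therefore shared ranks with undetected miRNAs of KPC-exosomes, which were set to 0.1. Quantile normalization averages the log2 signals of a rank, so these signals were averaged with that floor. It moved miR-7005-3p and miR-6940-3p to -0.03 and -0.77 on the log2 scale in MPDC-exosomes, against 3.63 and 4.05 in KPC-exosomes. For the 12 members with a signal under 15 in MPDC-exosomes, a limit set after the values were seen, normalization added a median of 4.38 on the log2 scale. For the 32 members at 15 or more it added 1.84. So the largest normalized differences, apart from that of miR-7033-3p (4.46), belonged to dim members. miR-6940-3p had 4.82, miR-7047-3p 3.90, miR-7005-3p 3.66, miR-7050-3p 3.57 and miR-6953-3p 3.54. Before normalization 4 of these 5 were lower in KPC-exosomes. miR-7047-3p had signals of 8.48 ± 1.45 in KPC-exosomes and 10.6 ± 1.60 in MPDC-exosomes, and miR-7005-3p had 6.65 ± 1.14 and 9.61 ± 1.28.

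With the filter of a 2-fold difference and detection on at least 1 array, 29 members (14.6%) were called higher in KPC-exosomes, against 18.0% of all miRNAs, and 21 (10.6%) were called lower, against 24.5%. The 29 were 28 members detected on both arrays and miR-6944-3p. The 21 were exactly those detected in MPDC-exosomes only, so no member measured on both arrays was called lower. Without normalization 3 members were called higher (all miRNAs 6.38%) and 38 lower (all miRNAs 38.9%).

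The 21 members of the second kind were dim. Their signals in MPDC-exosomes ran from 3.19 to 15.1 (median 8.26), and the sums over all their probes in KPC-exosomes, none of them past 3 errors, ran from 0.345 to 5.49 (median 3.75). Where an array did not detect a miRNA, a fold can be given only as a bound, against the higher of the lowest detected signal of that array and the summed signal of the miRNA itself. After normalization none of the 21 had a bound above 1-fold. Without normalization 19 had one, of 1.50 to 3.92-fold, and 13 reached 2-fold. These bounds leave out the errors of both signals, so a fold can be smaller. The lowest detected signal of KPC-exosomes was moved to 2.19 by normalization and that of MPDC-exosomes to -1.36, while undetected miRNAs were at -2.61 and -3.32.

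The brightest of the 21 was miR-7054-3p, within Scaf1, with a signal of 15.1 ± 1.78 in MPDC-exosomes and a sum of 4.78 in KPC-exosomes. By its bound it was 3.16-fold lower in KPC-exosomes without normalization. miR-7002-3p, within Aqr, the gene of an intron-binding helicase of the spliceosome, had 12.1 ± 1.65 in MPDC-exosomes, and miR-6954-3p had 11.4 ± 1.63. miR-7023-3p, within Pik3cd, the gene of the delta catalytic subunit of PI3 kinase, had 11.6 ± 1.63. It was not detected in KPC-exosomes, and by its bound was 2.46-fold lower there without normalization. PI3 kinase and Akt are the pathway the study followed in muscle cells. The study stated that the delta subunit is held to occur in leucocytes only, and that its own results matched this. A second member, miR-6939-3p, lies within Akt1 and was named after its values were seen, and it was detected on neither array. A host gene is where the hairpin is encoded, and no messenger RNA was measured.

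miR-6944-3p, within Dbn1, the gene of the actin-binding protein drebrin, was the only member detected in KPC-exosomes and not in MPDC-exosomes. Its signal was 6.36 ± 1.40, and the sum over its undetected probes in MPDC-exosomes was 3.94. By the same kind of bound, which leaves out the errors, it was 18.9-fold higher in KPC-exosomes after normalization and 1.61-fold higher without it. Its 5p arm had the opposite direction, with 208 ± 15.5 in KPC-exosomes and 1159 ± 88.3 in MPDC-exosomes.

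miR-6927-3p and miR-6945-3p share the seed CUGAGCU and were both detected in MPDC-exosomes only. miR-6927-3p had 8.32 ± 1.53 and miR-6945-3p 3.19 ± 1.05, the latter from 1 of its 2 probes. The probe of miR-6945-3p had 12 bases in a row in common with that of miR-328-3p, whose signal was 3.60 in KPC-exosomes and which was not detected in MPDC-exosomes. The probe of miR-7054-3p had 11 in common with that of miR-6982-3p, which had signals of 10.3 (KPC-exosomes) and 27.6 (MPDC-exosomes).

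A 3p arm was detected at similar shares whether or not its 5p arm was. Both arms were on the array for 198 hairpins. In KPC-exosomes both arms of 29 hairpins were detected, the 5p arm alone of 97, the 3p arm alone of 16, and neither of 56. The 3p arm was seen in 23.0% of the 126 hairpins whose 5p arm was detected and in 22.2% of the 72 whose 5p arm was not. In MPDC-exosomes the counts were 52, 101, 13 and 32, and the shares 34.0% of 153 and 28.9% of 45. Of 27 hairpins with both arms detected on both arrays, the 5p arm was higher in KPC-exosomes before normalization in 4 and the 3p arm in 1 (miR-7033). Over these 27 hairpins, whose arms share the arrays, the Spearman rho between the differences of the arms was -0.05.

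Detected members had probes richer in G and C. The median GC of the probes was 64.2% for members detected on either array and 54.1% for the others, a gap of 10.1 percentage points. The gap in GC was 7.10 for the 5p arms of the number range, 6.26 for the other 3p arms and 6.63 for all miRNAs. In the members it lay in G alone. Probes of detected members held a median of 51.7% G against 39.3%, with 22.3% A against 34.4%, while C (12.5% against 14.7%) was not higher in them. Over all miRNAs C was higher in the detected (33.2% against 21.6%) and G was lower (21.1% against 25.8%). The 5p arms of the number range and the other 3p arms had these directions too. GC was 65.5% for the members detected in KPC-exosomes and 65.5% for those in MPDC-exosomes, sets that have 44 members in common. For those in MPDC-exosomes only it was 62.1%. Over all miRNAs these values were 58.6%, 55.2% and 51.5%. Over the 198 members, the signal summed over all probes had a Spearman rho with GC of 0.30 in KPC-exosomes and 0.40 in MPDC-exosomes, where the points share the array and the base composition of the number range.

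**Figure D4:**
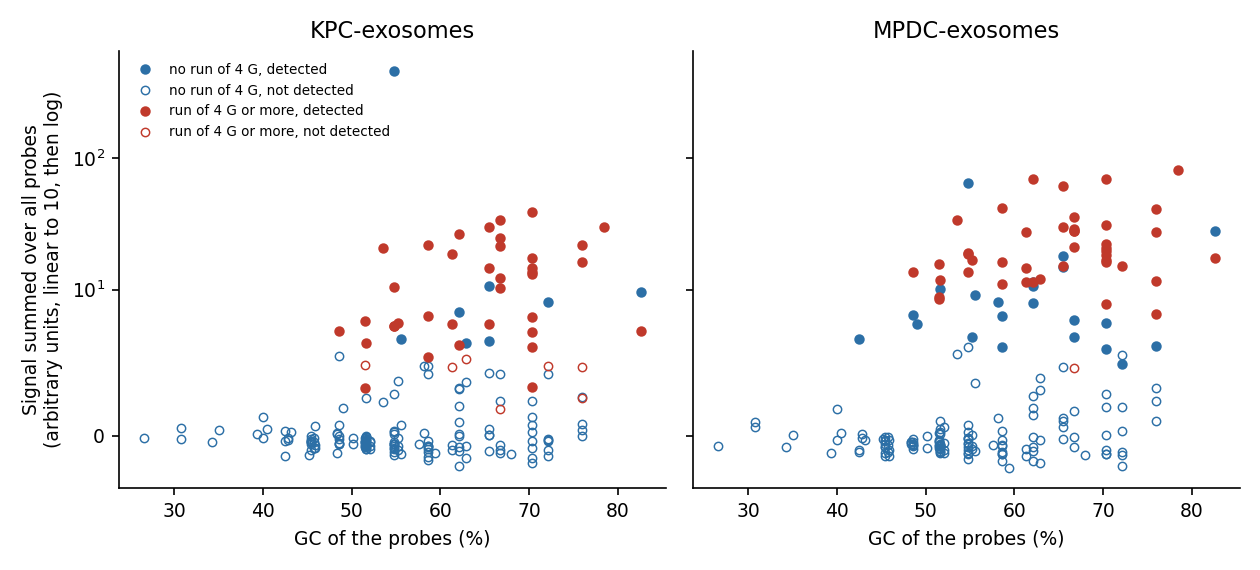
Signal summed over all probes (y axis, arbitrary units, linear to 10 and log above) against the GC of the probes in percent (x axis) for the 198 members in KPC-exosomes (left) and MPDC-exosomes (right). Filled points are detected members and open points are not detected. Members whose probes hold a run of at least 4 G (second colour) were detected at all GC levels where they occur, and few of the others were.

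The G of these probes stood in runs, a feature looked at after the values were seen. A run of C in the mature arm, part of the pyrimidine stretch before the splice site, is a run of G in the probe. The probes below, 5′ to 3′ as on the array with runs of 4 or more G in capitals, belong to the brightest members and to miR-6940-3p.

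miR-7045-3p probe: ctgtgcGGGGGa
miR-6937-3p probe: ctagtgcaaGGGGGa
miR-7022-3p probe: tGGGGGcagaggtc
miR-7046-3p probe: ctgtaGGGGGatggg
miR-6897-3p probe: ctGGGGGaagaacac
miR-7067-3p probe: ctgtGGGGagggaa
miR-7033-3p probe: ctgcccaagagaatgg
miR-6940-3p probe: ctgcgggcaagca

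The motif GGGG, read on the strand of the probe and counted once per miRNA however runs overlap, was in a probe of 44 members (22.2%), against 6.13% of the other 3p arms, 1.50% of the 5p arms of the same number range and 5.69% of all miRNAs. Of these 44 members, 37 (84.1%) were detected in KPC-exosomes and 43 (97.7%) in MPDC-exosomes. The exception was miR-7006-3p, whose probes summed to 1.82 and 4.62. Of the 154 members without the motif, 8 (5.19%) and 22 (14.3%) were detected. All 5 members with a run of 5 G were detected on both arrays, and they were the 5 brightest in MPDC-exosomes beside miR-7033-3p.

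The pattern was also seen outside the members. Of the 63 other miRNAs with GGGG in a probe, 82.5% were detected in KPC-exosomes and 96.8% in MPDC-exosomes, against 41.7% and 55.9% of the 1620 without it. So the high share among miRNAs with the motif was not particular to the members, while the share without the motif was much lower in the members (5.19% and 14.3%).

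**Figure D5:**
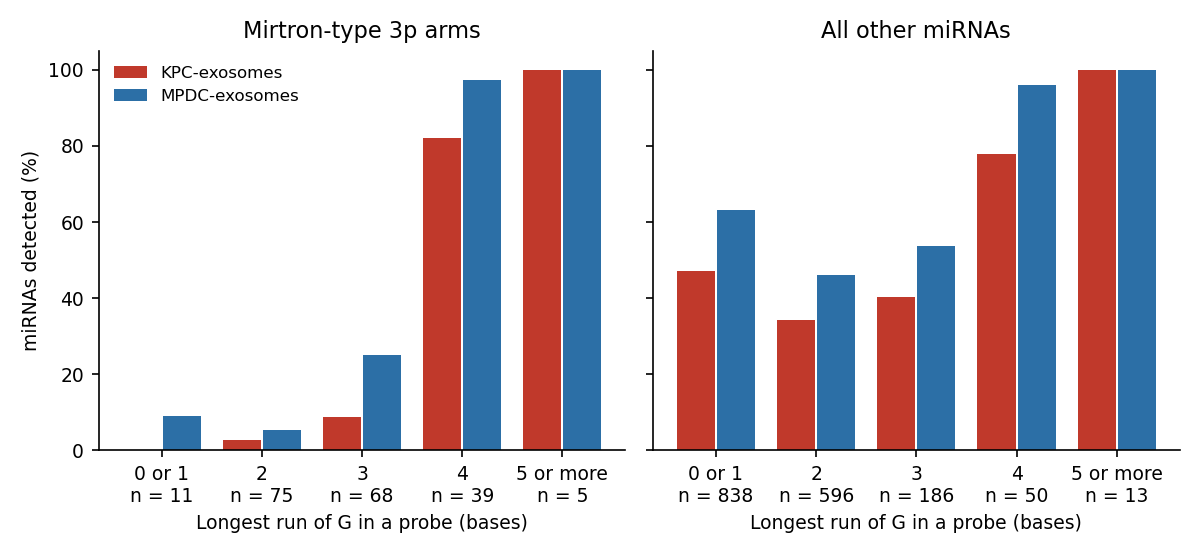
Share of miRNAs detected (y axis, percent, from 0) by the longest run of G in any of their probes (x axis, bases, with the number of miRNAs) for the 198 members (left) and the 1683 other miRNAs (right), with KPC-exosomes and MPDC-exosomes as paired bars. In members the share goes from 8.82% and 25% at a run of 3 to 82.1% and 97.4% at a run of 4.

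The run of G and the GC of a probe go together, so detection was also read at like GC. Among the members lowest in GC, where they were split into 3 groups of like size, 4 and 5 of 5 members with the motif were detected in KPC-exosomes and MPDC-exosomes, and 0 and 4 of 65 without it. In the middle group these were 12 and 13 of 13, and 3 and 9 of 52. In the group highest in GC they were 21 and 25 of 26, and 5 and 9 of 37. Among the 154 members without the motif, detected members still had a GC 8.65 percentage points above the rest. With detection at 5 errors, 19 of 44 members with the motif and 2 of 154 without it were detected in KPC-exosomes, and 41 and 6 in MPDC-exosomes. What part the run of G has in the signals, in either kind of exosome, was not tested.

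The differences between the arrays were narrow in the members with the motif that both arrays detected, a set limited by detection as above. Of the 37 detected on both arrays, 36 were lower in KPC-exosomes before normalization, with a median log2 difference of -0.95 and quartiles 0.39 apart. For 52 other miRNAs with the motif the median was -1.27 and the quartiles were 0.85 apart, and for 630 without it they were -1.49 and 2.54. The 7 members without the motif on both arrays were more varied, from -1.49 to 2.83 with a median of -0.53, and 5 of the 7 were lower in KPC-exosomes. miR-7033-3p, miR-6940-3p, miR-7047-3p and miR-7005-3p were among these 7. Of the 21 members detected in MPDC-exosomes only, 6 held the motif and 15 did not.

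Well-known mirtrons outside the number range had values of their own. miR-877-3p had a signal of 21.8 ± 1.44 in KPC-exosomes and 30.2 ± 1.83 in MPDC-exosomes, and miR-877-5p 76.3 ± 4.02 and 97.3 ± 5.01. miR-702-3p had 21.1 ± 2.0 and 33.4 ± 2.76. All of these were lower in KPC-exosomes before normalization, by 0.35 to 0.66 on the log2 scale. After quantile normalization they were all higher there, by 1.09 to 1.47. miR-702-5p was detected in MPDC-exosomes only, with 6.23 ± 1.18. miR-1224-5p was far brighter, with 27573 ± 2262 and 28167 ± 2169, and its 3p arm was not detected on either array.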

How the data were processed

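Exosomal miRNAs of KPC cells and MPDC cells were read on 1 Agilent mouse array per kind, on a common slide, from 0.5 ug of RNA. The authors deposited scanner output whose signals are intensities with the background subtracted (Feature Extraction 10.7.1.1 per the file headers, 9.1 in the submitters' processing notes), and log2 values normalized in GeneSpring by a method not given in the sources used here. The labels name a cRNA amplification kit, and how that bears on miRNAs was not examined.

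Total signals of probes above 3 errors were summed per miRNA, others set to 0.1, and log2 signals of 1881 miRNAs and 21 control features were quantile normalized, which came within 1.11e-05 of the deposited log2 values. Undetected miRNAs hold only a bound. A call needed a 2-fold difference and detection on at least 1 array. With 1 array per condition there was no test, no p-value and no replicate, and this limits the precision of each value. GC and runs of G are means and maxima over the probes of a miRNA. Positions and sequences are those of RefSeq (GRCm38.p6), matched by name for 174 of 198 members. The array files use mm9, and the builds were not mixed. One further allele of the KPC mice and one host gene are not reported here.

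Named members were the 6 brightest per array, the 6 largest normalized differences in each direction among those detected on both arrays, the 4 brightest detected on 1 array only, the 4 brightest that changed direction, the seed group with most detected members and those nearest to 3 errors. The members and lists were chosen with earlier results of these data known. Normalization, floor, detection and fold limits were varied, as was background correction by normexp with an offset of 50. Python 3.11.15 with numpy 2.4.6, pandas 2.3.3, scipy 1.17.1 and matplotlib 3.10.9, and limma 3.58.1 in R 4.3.3 were used.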

Additional observations from a re-analysis of the deposited data

How the results depend on the processing

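The direction of the members rests on the scaling. Without normalization the median log2 difference was -0.93, also with all probes summed (a setting chosen after seeing the data), and with scaling to the 4 spike-in controls -0.96. It was 0.61 with scaling to the 75th percentile over miRNAs seen on both arrays, 0.70 with their median, 0.21 with normexp background correction and 1.39 with detection at 5 errors. Over the 7 members without a run of 4 G, chosen after seeing the data, it was 3.66, and detected members then numbered 8 and 22. Scaling by 1 factor moves both medians alike, so the median of the members lay 0.44 above that of all miRNAs under each such scaling. It lay 0.57 above it after quantile normalization and 0.05 above it with normexp. These medians hold only miRNAs detected on both arrays, among which the members were dimmer than the whole. Members called higher numbered 3 without normalization and 3 with spike-in controls, 10, 11 and 16 with the percentile and median scalings, 1 with normexp and 14 at 4-fold. Members called lower numbered 38 without normalization and 40 with spike-in controls, and 0 with normexp, with detection required on both arrays or with bounds in place of the floor. Members detected in KPC-exosomes numbered 21 at 5 errors and 24 where at least 50% of the spots had to be well above background.

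Of 14 named members detected on both arrays, 12 turned to lower in KPC-exosomes without normalization and with spike-in controls, and miR-7033-3p and miR-6940-3p did not. The log2 differences without normalization and with spike-in controls were -0.95 and -0.97 for miR-6897-3p, -1.39 and -1.42 for miR-6937-3p, -0.93 and -0.96 for miR-6953-3p, -0.53 and -0.56 for miR-7005-3p, -0.82 and -0.84 for miR-7022-3p, -1.45 and -1.48 for miR-7045-3p, -1.03 and -1.06 for miR-7046-3p, -0.33 and -0.35 for miR-7047-3p, -0.86 and -0.88 for miR-7050-3p, -0.86 and -0.89 for miR-7053-3p, -0.085 and -0.11 for miR-7067-3p, and -1.47 and -1.49 for miR-7087-3p. The cause was not tested. No paired analysis was possible because each condition has 1 array.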
